A study of Mus musculus with 12 samples.

Results

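The genes described here encode the proteins that join neighbouring epithelial cells: claudins, occludin and the zonula occludens scaffolds of the tight junction, cadherins, the desmogleins, desmocollins and plakophilins of the desmosome, and the connexins of gap junctions. They were taken by symbol from the annotated array table, whatever their values, and 77 of the 19935 genes tested were members. Of these, 31 belong to the tight junction (28 claudins, Ocln, Tjp1 and Tjp3), 23 are cadherins, 11 belong to the desmosome and 12 are connexins. All 77 were measured, since no filter on low values was applied.

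The study compared the anterior prostate lobe of male APT121 mice, which carried lesions of prostatic intraepithelial neoplasia (PIN), a growth of abnormal epithelium inside the gland, with that of wild type males. In APT121 mice the probasin promoter, which is active in prostate epithelium and not in the stroma, is known to drive T121, a truncated large T antigen of SV40 that disables the retinoblastoma proteins. Mice of both groups were F3 animals of mixed C57BL/6J and DBA/2 descent, ate the AIN93G diet from 3 weeks of age and were killed at 12 weeks. Each array held RNA of 2 pooled mice, so that 8 APT121 mice gave 4 arrays and 16 wild type mice gave 8. Arrays are called by genotype and by the replicate number of their labels, p-values measure the spread between pools, and pooling hides the spread between mice.

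Tight junctions seal the space between epithelial cells near their upper border, and the claudins that build them decide which ions and solutes pass. Cadherins of neighbouring cells bind each other across the gap and hold actin through catenins, while the cadherins of desmosomes hold keratin filaments through plakophilins, plakoglobin and desmoplakin. Connexins form channels that let small molecules pass between cells. In the prostate, E-cadherin marks luminal and basal epithelium, P-cadherin marks basal cells, and loss or exchange of junction proteins is a much studied feature of prostate tumours.

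The arrays differed little in their scale, as the authors' quantile normalisation imposes. The median intensity of an array was between 32.1 and 33.7 and the highest between 18323 and 20612, and precision is limited by how many arrays there are. The defining keratins and other markers of luminal epithelium were present in all arrays, with a summed intensity of 19256 to 19875 in APT121 arrays and 13425 to 16000 in wild type arrays. Transcripts of the seminal vesicle, which lies against the anterior prostate, set some arrays apart. The summed intensity of 9 seminal vesicle markers was 1575, 17979, 11224 and 14170 in APT121 arrays 1 to 4, and it was 16018 in wild type array 6 and between 110 and 207 in the other 7 wild type arrays. The patterns behind similar sums differed. In APT121 arrays the sum came mainly from Svs2, Svs5 and Pate4. Svs1, Svs3a, Svs3b, Svs6 and Sva stayed low there and were raised only in wild type array 6. Svs1, for example, measured 3.53 to 4.17 in APT121 arrays and 6.96 in wild type array 6. Results are also given for APT121 array 1, the lowest of its group in this sum, against the 7 wild type arrays other than array 6. This comparison was chosen after seeing the data, and the lone APT121 array is assumed to vary like the wild type arrays. It lessens the difference in seminal vesicle transcripts and does not remove it, at 1575 against 110 to 207.

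Values below are log2 intensities of 1 transcript cluster per gene (the array's probe set for a transcript). Each difference is the APT121 mean minus the wild type mean (log2) ± SE, adjusted p-values are from limma with Benjamini-Hochberg adjustment over all 19935 genes, and a gene is said to have risen or fallen where its adjusted p was under 0.05. Intensities of different genes are read by different probes. Genes are called bright or dim by their mean intensity, which does not rank them by the abundance of their transcripts. In whole lobes, a change in the number of cells of a type and a change in RNA per cell cannot be told apart. This holds for rises as for falls.

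The junction genes moved both ways, more of them downward. Of the 77 members, 9 rose in APT121 prostate (11.7%), where 22.8% of all genes tested rose, and 29 fell (37.7%), where 30.0% of all genes fell. After repeated quantile normalisation 9 members rose (11.7%, against 19.5% of all genes), with the dim gene Dsg1b in place of Pkp3. In that setting 19 fell (24.7%), a share below the 27.6% of all genes. Without that step, 52.8% of all genes passed in either direction and 9 members rose. These were E-cadherin (Cdh1), desmoglein 2 (Dsg2), plakophilin 3 (Pkp3), the claudins Cldn3, Cldn4 and Cldn7, occludin (Ocln) and the scaffold genes Tjp1 and Tjp3. No connexin rose. The median difference of the members was -0.16, against -0.09 for all genes tested, and 59 of the 77 differences were below 0. Changes of at least 2-fold were made by Tjp3 and Cdh1 upward and by Gjb2 and Cldn1 downward, where 5.73% of all genes rose and 1.95% fell by that much.

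**Figure D1:**
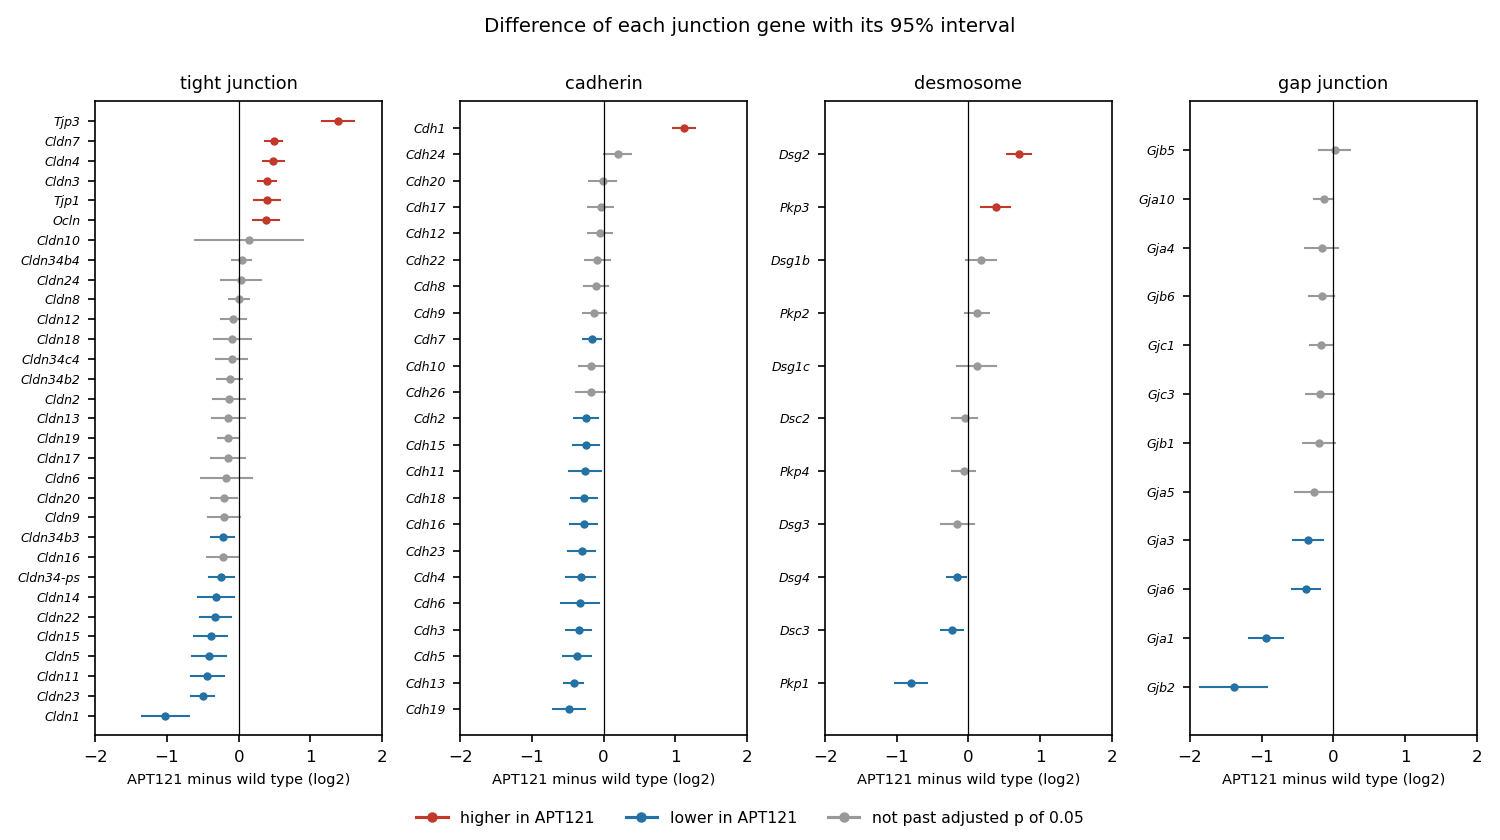
Difference of each of the 77 junction genes (APT121 minus wild type, log2) with its 95% interval, in a panel for each junction type. Genes that passed an adjusted p of 0.05 are coloured, and the largest differences are 1.39 for Tjp3 and 1.12 for Cdh1 upward and -1.39 for Gjb2 and -1.02 for Cldn1 downward.

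The promoters of 4 members are shown because of how these genes moved. Cldn3 and Cldn4 neighbour each other on chromosome 5 and both rose, while Cldn1 on chromosome 16 and Gjb2 on chromosome 14 are the members that fell by at least 2-fold. Each sequence covers 250 bases before and 50 after the transcript start, from RefSeq on GRCm38.p6, and is written 5′ to 3′ on the gene's strand. Capitals mark the E-box CAGGTG, a site that repressors of the Snail and Zeb families are known to bind, and the GC box GGGCGG, a site of Sp family factors, each on either strand, so that CACCTG and CCGCCC also count. The motifs in capitals do not overlap each other. The regions are chr5:134985964-134986263 (plus strand) for Cldn3, chr5:134946885-134947184 (minus strand) for Cldn4, chr16:26371790-26372089 (minus strand) for Cldn1 and chr14:57104653-57104952 (minus strand) for Gjb2.
Cldn3: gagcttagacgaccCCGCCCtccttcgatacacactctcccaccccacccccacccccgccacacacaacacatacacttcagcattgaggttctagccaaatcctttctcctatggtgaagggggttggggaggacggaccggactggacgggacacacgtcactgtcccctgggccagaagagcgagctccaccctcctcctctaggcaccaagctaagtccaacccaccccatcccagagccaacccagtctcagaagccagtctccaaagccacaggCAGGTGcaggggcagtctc
Cldn4: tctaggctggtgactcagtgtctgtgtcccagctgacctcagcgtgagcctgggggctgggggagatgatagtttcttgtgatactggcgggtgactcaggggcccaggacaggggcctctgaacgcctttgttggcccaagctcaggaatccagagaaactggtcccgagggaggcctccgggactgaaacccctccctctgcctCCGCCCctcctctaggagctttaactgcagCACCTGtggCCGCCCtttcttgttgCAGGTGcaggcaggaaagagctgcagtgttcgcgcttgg
Cldn1: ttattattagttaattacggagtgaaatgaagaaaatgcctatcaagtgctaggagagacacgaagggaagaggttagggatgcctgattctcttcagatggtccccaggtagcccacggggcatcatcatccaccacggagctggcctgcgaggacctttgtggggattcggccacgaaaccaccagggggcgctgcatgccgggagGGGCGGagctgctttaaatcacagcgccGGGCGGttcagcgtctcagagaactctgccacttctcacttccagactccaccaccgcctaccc
Gjb2: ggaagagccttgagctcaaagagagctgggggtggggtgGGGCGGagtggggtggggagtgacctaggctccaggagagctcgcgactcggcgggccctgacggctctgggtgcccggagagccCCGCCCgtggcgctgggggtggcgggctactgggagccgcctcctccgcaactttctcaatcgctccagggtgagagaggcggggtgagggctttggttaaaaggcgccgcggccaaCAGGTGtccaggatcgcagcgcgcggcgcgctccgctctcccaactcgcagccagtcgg
With the start counted as position 1 and the base before it as -1, the E-box of Cldn3 begins at position 32, those of Cldn4 at -14 and 12, and that of Gjb2 at -9. The Cldn1 stretch holds no CAGGTG on either strand.

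Promoters were found for 50 of the 77 members, among them 6 that rose (all tight junction genes), 16 that fell and 28 that did not pass the threshold, and a gene counts as holding a motif where any of its promoters does. The E-box CAGGTG was present for 5 of the 6 that rose (Cldn3, Cldn4, Cldn7, Ocln and Tjp3, but not Tjp1), for 4 of the 16 that fell and for 4 of the 28 others. It is present in 20.2% of all promoters of this length and for 22.2% of all genes tested with a promoter. The GC box was present for 5 of the 6 that rose and 8 of the 16 that fell, against 53.0% of all genes with a promoter and 35.7% of all promoters. The Grainyhead motif AACNGGTT is present in 2.09% of all promoters and for 2.27% of all genes tested with a promoter. For the E2F motif TTTNNCGC these shares are 5.17% and 7.56%. Each motif was found for 0 of the 6 that rose. A match is a run of letters and does not show that a factor binds there.

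Among tight junction genes, the scaffold gene Tjp3 made the largest rise. Tjp3 (transcript cluster 10371111) encodes ZO-3, a plaque protein that ties claudins to the cell's interior, and measured 8.33, 8.23, 8.11 and 8.61 in APT121 arrays 1 to 4. In wild type arrays it lay between 6.67 and 7.17, with a median of 6.96. The groups were far apart, and the lowest APT121 array stood above the highest wild type array. The difference was 1.39 ± 0.11 (2.62-fold, adjusted p = 1.71e-08), and it was 1.36 (adjusted p = 4.46e-05) for APT121 array 1 against wild type without array 6.

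Tjp1, which encodes ZO-1, the scaffold shared by tight junctions and young adherens junctions, measured 10.01, 9.93, 9.90 and 10.07 in APT121 arrays and between 9.39 and 9.79 (median 9.60) in wild type arrays. All APT121 values were above all wild type values, with a difference of 0.39 ± 0.08 (adjusted p = 0.00109). The wild type arrays themselves separated for this gene, at 9.68 to 9.79 in arrays 1 to 4 and 9.39 to 9.52 in arrays 5 to 8. The difference was 0.25 from the first of these sets (adjusted p = 0.0138) and 0.53 from the second (adjusted p = 9.63e-05). With APT121 array 1 alone it was 0.41 and no longer passed (adjusted p = 0.0857). Ocln, which encodes occludin, a membrane protein of the tight junction strand, measured 8.44, 8.37, 8.29 and 8.26 in APT121 arrays, against 7.65 to 8.14 (median 7.96) in wild type arrays. Its groups did not overlap either, and it rose by 0.39 ± 0.08 (adjusted p = 0.00126).

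Of the 28 claudins, 3 rose, 9 fell and 16 did not pass, with a median difference of -0.15. The 3 that rose are claudins of simple and glandular epithelia. Cldn4, a receptor of Clostridium perfringens enterotoxin as its neighbour Cldn3 is, measured 10.88, 10.91, 10.62 and 10.90 in APT121 arrays and 10.23 to 10.51 (median 10.35) in wild type arrays. APT121 array 3 was the lowest of its group and still above every wild type array, and the difference was 0.49 ± 0.07 (1.40-fold, adjusted p = 3.44e-05). Cldn3 measured 9.85, 10.01, 9.75 and 9.95 in APT121 arrays and 9.45 to 9.57 (median 9.49) in wild type arrays, and rose by 0.39 ± 0.06 (adjusted p = 4.66e-05). Cldn7, which in the mouse intestine also lies on the sides of cells outside the tight junction, had the tightest APT121 values of the 3. Its values were 8.97, 9.00, 8.95 and 8.97 in APT121 arrays and 8.41 to 8.54 (median 8.51) in wild type arrays, a difference of 0.49 ± 0.05 (adjusted p = 1.60e-06). None of the 3 overlapped between the groups.

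Cldn1 (transcript cluster 10438769), the claudin that the skin's water barrier requires in mice, went the other way. It measured 5.32, 6.27, 5.73 and 5.20 in APT121 arrays, a wider spread (SD 0.48) than that of the wild type arrays (SD 0.15), which lay between 6.47 and 6.92 with a median of 6.63. Even the highest APT121 array, array 2, was below every wild type array. The difference was -1.02 ± 0.15 (2.03-fold lower, adjusted p = 3.60e-05), and -1.29 for APT121 array 1 alone (adjusted p = 2.16e-05). Cldn23 measured 6.09, 6.08, 6.03 and 5.84 in APT121 arrays and 6.35 to 6.65 (median 6.53) in wild type arrays, again without overlap, and fell by 0.50 ± 0.08 (adjusted p = 4.08e-05).

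The other claudins named by the rule fell by less. Cldn11, a claudin of myelin and of Sertoli cells, measured 4.39 ± 0.13 in APT121 arrays and 4.83 ± 0.22 in wild type arrays (mean ± SD, n = 4 and 8), a difference of -0.44 ± 0.11 (adjusted p = 0.00302). Cldn15, which forms cation pores in the intestine, differed by -0.39 ± 0.11 (adjusted p = 0.00696), and its groups overlapped. Cldn5, the claudin of the endothelial barrier, measured 5.51, 5.31, 5.78 and 5.31 in APT121 arrays and 5.59 to 6.17 (median 5.85) in wild type arrays. APT121 array 3 reached into the wild type range, and the difference was -0.42 ± 0.11 (adjusted p = 0.00485). With APT121 array 1 alone each of these 3 lost its call, at -0.27 for Cldn11 (adjusted p = 0.247), and at differences close to those above for Cldn15 (-0.43, adjusted p = 0.125) and Cldn5 (-0.39, adjusted p = 0.150). The remaining claudins that fell were Cldn14, Cldn22, Cldn34b3 and the pseudogene Cldn34-ps, by 0.22 to 0.32 on the log2 scale. Cldn14 lost its call without any one of wild type arrays 1, 3, 6 and 7 or of the APT121 arrays (adjusted p = 0.0518 to 0.0986). Cldn22 and Cldn34b3 lost theirs without APT121 array 2 (adjusted p = 0.0589 and 0.107), and Cldn34-ps without APT121 array 1, 2 or 4 (adjusted p = 0.0599 to 0.0607). The Cldn34 copies are so alike that probes may not part them.

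Among the 16 claudins that did not pass are 4 chosen after their values were seen. Cldn8, a claudin of the distal kidney tubule that was read brightly here, averaged 10.94 ± 0.07 in APT121 arrays and 10.93 ± 0.09 in wild type arrays (mean ± SD, n = 4 and 8), with a lowest value of 10.84 in each group. The groups overlapped, and the difference was 0.01, with a 95% interval of -0.13 to 0.15 (adjusted p = 0.928). Cldn10, an ion-pore claudin, spread more widely within each genotype than the means of the genotypes differed, at 4.91, 4.29, 3.93 and 5.99 in APT121 arrays and 3.96 to 5.70 in wild type arrays (difference 0.15, 95% interval -0.61 to 0.90). Cldn12 differed by -0.07 and Cldn2, a cation-pore claudin, by -0.14 (adjusted p = 0.478 and 0.294). Without APT121 array 2, 5 of the 31 tight junction genes fell in place of 9.

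Markers of other tissue parts moved with these genes. Of 9 luminal markers measured, 5 rose and 3 fell, with a higher sum in every APT121 array than in any wild type array (above). Of 10 endothelial markers, 8 fell and 0 rose, and their summed intensity was 511 to 533 in APT121 arrays and 706 to 806 in wild type arrays. The part of luminal and endothelial cell numbers in the values of the claudins, Cldn5 included, was not tested. Nor was the part of luminal cell number in the values of the other junction genes that rose. Fat markers fell for 8 of 9 measured genes and rose for 1, with sums of 402 to 437 in APT121 arrays and 469 to 958 in wild type arrays. Myeloid markers rose for 8 of 10 and fell for 0, with sums of 1107 to 2044 in APT121 arrays and 644 to 788 in wild type arrays, and 3 of the 9 seminal vesicle markers rose and 0 fell, although the median difference of those 9 was -0.41.

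**Figure D2:**
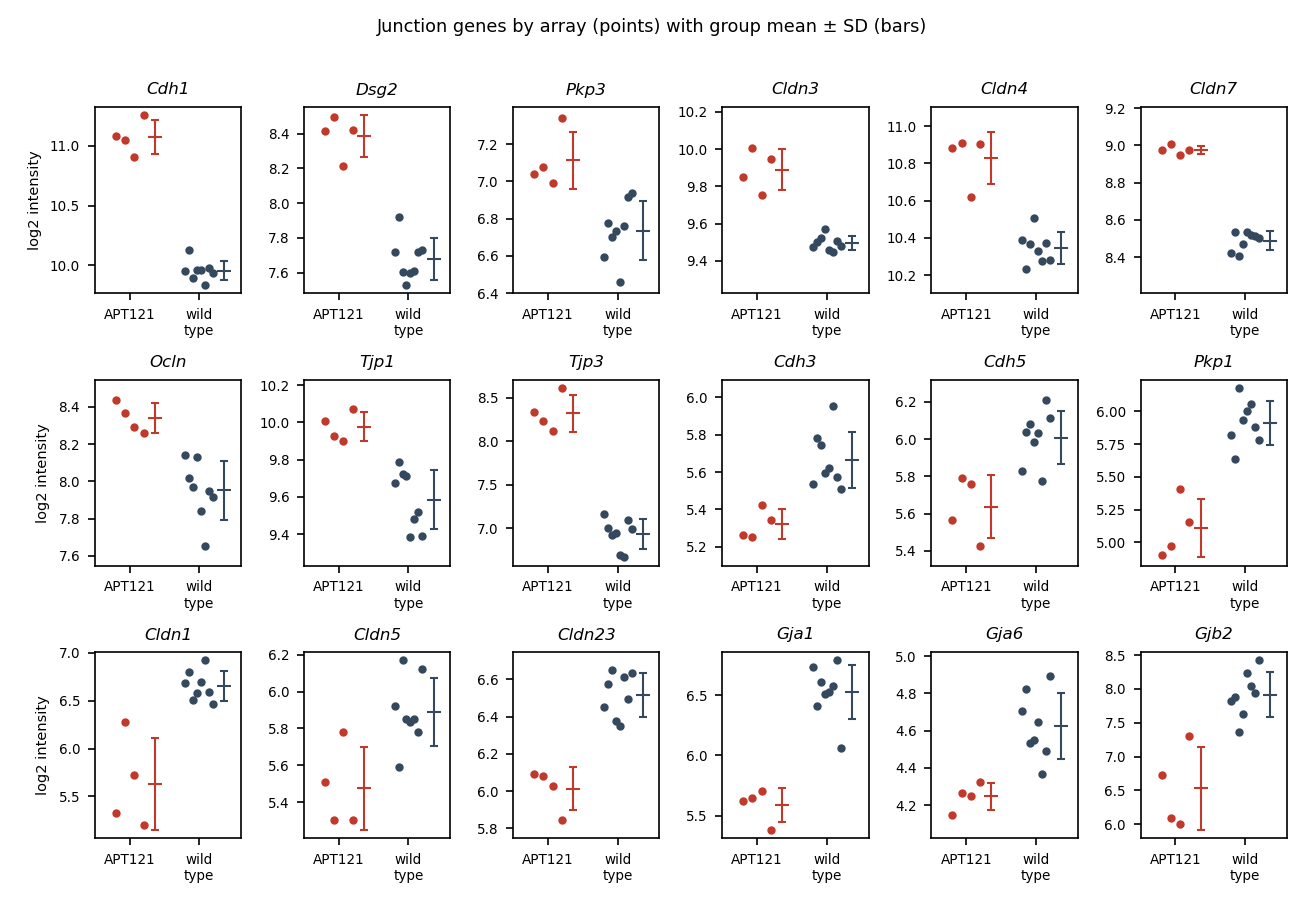
Log2 intensity of 18 junction genes on each array, with 4 APT121 arrays on the left and 8 wild type arrays on the right of each panel, and bars for the group mean ± SD. Axes differ between panels. The first 9 genes, Cdh1 to Tjp3, are those that rose, and no APT121 value of theirs reaches the wild type range, while for Cdh5 and Cldn5 among the lower genes the ranges meet.

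Of the 23 cadherins, 13 fell (56.5%, against 30.0% of all genes), 1 rose and 9 did not pass, with a median difference of -0.24. After repeated quantile normalisation 6 of the 23 fell, a share below the 27.6% of all genes, so the excess of falls was not seen there. The falls numbered 7 with the replicate number as a block and 8 against wild type arrays 1 to 4. Both shares were above those of all genes in the same settings (24.2% against wild type arrays 1 to 4). The single rise was that of Cdh1, E-cadherin, the classical cadherin of epithelia. Cdh1 (transcript cluster 10575052) measured 11.08, 11.05, 10.91 and 11.26 in APT121 arrays and 9.83 to 10.12 (median 9.95) in wild type arrays. The gap between the groups was wider than the range within either of them. Cdh1 rose by 1.12 ± 0.07 (2.17-fold, adjusted p = 2.08e-09), and by 1.11 (adjusted p = 2.10e-05) in APT121 array 1 against wild type without array 6.

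Its chromosomal neighbour Cdh3 moved the opposite way. Cdh3 encodes P-cadherin, lies next to Cdh1 on chromosome 8 in the RefSeq annotation of GRCm38.p6, and measured 5.26, 5.25, 5.42 and 5.34 in APT121 arrays. Wild type arrays lay between 5.51 and 5.95, with a median of 5.61. The groups did not overlap, although the gap was narrow, and Cdh3 fell by 0.34 ± 0.08 (adjusted p = 0.00249), a call lost with APT121 array 1 alone (-0.36, adjusted p = 0.0577). Of 10 basal cell markers, 7 fell and 2 rose (Sfn and Itgb4), and their summed intensity was 808 to 894 in APT121 arrays and 855 to 1090 in wild type arrays. The part of basal cell number in the Cdh3 value was not tested.

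Cdh2, N-cadherin, the classical cadherin of nerve and muscle whose gain is often sought in carcinoma, did not rise. It measured 3.18, 3.08, 3.31 and 3.08 in APT121 arrays and 3.20 to 3.60 (median 3.39) in wild type arrays. These values lie far below the median gene's mean (5.44 in APT121 and 5.38 in wild type), and without detection calls they were not shown to be above background. The difference was -0.24 ± 0.08 (adjusted p = 0.0171), and leaving out APT121 array 2 or 4 ended the call (adjusted p = 0.0619 and 0.0564). It did not pass either after repeated quantile normalisation (-0.14, adjusted p = 0.144) or with only wild type arrays 1 to 4 (-0.19, adjusted p = 0.0878).

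Cdh13, T-cadherin, which is anchored by lipid and has no cytoplasmic tail, measured 5.62, 5.70, 5.63 and 5.50 in APT121 arrays and 5.93 to 6.14 (median 6.02) in wild type arrays. Its groups stood apart, with a difference of -0.42 ± 0.06 (adjusted p = 3.06e-05). Cdh5, VE-cadherin, the adhesion molecule of endothelial cells, measured 5.57, 5.79, 5.76 and 5.43 in APT121 arrays, against 5.77 to 6.21 (median 6.03) in wild type arrays. Its ranges touched at APT121 array 2, and it fell by 0.37 ± 0.09 (adjusted p = 0.00270). The endothelial markers given with Cldn5 were lower beside it, and the part of endothelial cell number in the Cdh5 value was not tested.

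Cdh11, a cadherin of mesenchyme and bone, measured 6.18, 5.93, 6.11 and 5.83 in APT121 arrays and 6.06 to 6.61 (median 6.27) in wild type arrays. Its groups overlapped, and its difference of -0.26 ± 0.10 was only just inside the threshold (adjusted p = 0.0489). The call was lost in 13 of 25 alternatives, among them leaving out any one of wild type arrays 2, 4, 5, 7 and 8 or APT121 arrays 2, 3 and 4 (adjusted p = 0.0516 to 0.160). Of 10 fibroblast markers, 9 fell and 1 rose, with a summed intensity of 3390 to 4634 in APT121 arrays and 4866 to 5614 in wild type arrays, and their part in the Cdh11 value was not tested.

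The remaining cadherins were dim. Cdh19, a cadherin known from the glial lineage of peripheral nerve, measured 2.75, 2.72, 2.71 and 2.67 in APT121 arrays and 2.93 to 3.53 (median 3.16) in wild type arrays, a difference of -0.48 ± 0.10 (adjusted p = 0.00110). All APT121 arrays sat close together at the low end of the array's scale and below every wild type array. Of 8 nerve and glia markers measured, 4 fell and 2 rose, with sums of 601 to 652 in APT121 arrays and 652 to 841 in wild type arrays, and their part in the Cdh19 value was not tested. Cdh6 differed by -0.33 ± 0.12 (adjusted p = 0.0340) with overlapping groups, and its call was lost without wild type array 1, 2, 5 or 7 or APT121 array 1, 3 or 4 (adjusted p = 0.0525 to 0.0803). The other members that fell were Cdh4, Cdh7, Cdh15, Cdh16, Cdh18 and Cdh23, by 0.16 to 0.32 on the log2 scale. Without APT121 array 2, Cdh7, Cdh15 and Cdh18 lost their calls (adjusted p = 0.116, 0.120 and 0.0689), and leaving out APT121 array 3 ended the call of Cdh7 as well (adjusted p = 0.0526). Cdh8, Cdh9, Cdh10, Cdh12, Cdh17, Cdh20, Cdh22, Cdh24 and Cdh26 did not pass, with differences between -0.18 and 0.20. For Cdh24 the cluster used gave 0.20 and its other cluster -0.13. Leaving out APT121 array 2 reduced the cadherins that fell to 8.

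In the desmosome, 2 of 11 members rose (18.2%) and 3 fell (27.3%), near the 22.8% and 30.0% of all genes, and 6 did not pass. Dsg2, the desmoglein found in every tissue that has desmosomes, measured 8.42, 8.49, 8.22 and 8.42 in APT121 arrays and 7.53 to 7.92 (median 7.67) in wild type arrays. The groups were apart by more than the spread of the APT121 arrays, and Dsg2 rose by 0.71 ± 0.08 (1.63-fold, adjusted p = 1.21e-06). Its call held with APT121 array 1 alone (0.73, adjusted p = 0.00226).

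The 4 plakophilins, plaque proteins that bind desmosomal cadherins and desmoplakin, went different ways. Pkp3, found in both simple and stratified epithelia, measured 7.04, 7.08, 6.99 and 7.34 in APT121 arrays and 6.46 to 6.94 (median 6.75) in wild type arrays. It was higher in every APT121 array by a narrow margin and rose by 0.38 ± 0.09 (adjusted p = 0.00281). Repeated quantile normalisation took it to 0.21 (adjusted p = 0.0772), and with APT121 array 1 alone it was 0.31 (adjusted p = 0.200). Pkp1, the plakophilin most abundant in stratified epithelia, measured 4.91, 4.97, 5.41 and 5.16 in APT121 arrays and 5.64 to 6.18 (median 5.91) in wild type arrays. No value was shared, and Pkp1 fell by 0.80 ± 0.11 (1.74-fold, adjusted p = 9.41e-06), and by 0.98 (adjusted p = 9.47e-04) with APT121 array 1 alone. Of the 10 basal cell markers given with Cdh3, 7 fell and 2 rose (Itgb4 by 1.43 and Sfn by 1.01), and their sums overlapped. Krt5, Krt14, Krt15, Trp63, Lgals7 and Col17a1 each fell without overlap between the groups, and Aqp3 fell with overlap. The part of basal cell number in the Pkp1 value was not tested. Pkp2 and Pkp4 gave differences of 0.12 ± 0.08 (95% interval -0.05 to 0.29) and -0.07 ± 0.07 (-0.23 to 0.09), with adjusted p-values of 0.227 and 0.465.

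Among desmocollins, Dsc2, the widely expressed one, measured 7.89, 8.13, 8.01 and 7.88 in APT121 arrays and 7.89 to 8.33 (median 8.01) in wild type arrays, so that its groups overlapped almost fully (difference -0.05 ± 0.08, 95% interval -0.23 to 0.12, adjusted p = 0.599). Dsc3, a desmocollin of basal layers, measured 3.17 ± 0.06 in APT121 arrays and 3.40 ± 0.12 in wild type arrays and fell by 0.23 ± 0.07 (adjusted p = 0.0146). Dsg4, a desmoglein of the hair follicle, differed by -0.17 ± 0.06 (adjusted p = 0.0390). It kept its call in 8 of the 23 alternatives that tested it, and leaving out any array other than wild type 3, 4 or 8 lost it (adjusted p = 0.0505 to 0.105). Dsg3, a desmoglein of basal keratinocytes, did not pass (-0.16, adjusted p = 0.225), nor did Dsg1b and Dsg1c, whose near-identical copies may share probes. These 5 genes, Dsc3 included, were dim on the array, with means over all arrays between 2.89 and 3.32.

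No connexin rose, where 22.8% of all genes did, and 4 of 12 fell (33.3%), near the 30.0% of all genes. The other 8 did not pass, and 11 of the 12 differences were below 0, as were 12587 of the 19935 differences of all genes. Gjb2 (transcript cluster 10420362), a connexin of glandular epithelia and the inner ear, made the largest fall of the whole set. It measured 6.72, 6.09, 6.00 and 7.31 in APT121 arrays and 7.36 to 8.42 (median 7.91) in wild type arrays. APT121 array 4 came close to the lowest wild type array, while arrays 2 and 3 were well below, so that the APT121 spread (SD 0.61) was larger than that of wild type arrays (SD 0.33). The difference was -1.39 ± 0.22 (2.62-fold lower, adjusted p = 6.62e-05). The wild type arrays separated here too, at 7.36 to 7.89 in arrays 1 to 4 and 7.93 to 8.42 in arrays 5 to 8, and the differences against them were -1.15 (adjusted p = 0.00248) and -1.63 (adjusted p = 2.21e-04). With APT121 array 1 alone against the wild type arrays other than array 6, the difference was -1.17 (adjusted p = 0.0105).

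Gja1, the most widespread connexin and the main one of heart and smooth muscle, measured 5.62, 5.65, 5.71 and 5.38 in APT121 arrays and 6.06 to 6.79 (median 6.55) in wild type arrays. The groups did not meet, and Gja1 fell by 0.94 ± 0.11 (1.92-fold, adjusted p = 3.11e-06). All 10 smooth muscle markers fell as well, with a summed intensity of 7105 to 9469 in APT121 arrays and 11775 to 13610 in wild type arrays, and their part in the Gja1 value was not tested. The remaining falls were of dim genes. Gja6, a rodent connexin known from the testis, fell by 0.38 ± 0.09 (adjusted p = 0.00241) with groups that stood apart. Gja3, a connexin of the lens that neighbours Gjb2 on chromosome 14, fell by 0.35 ± 0.10 (adjusted p = 0.00616).

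Among the connexins that did not pass, Gjb1, the main connexin of the liver, measured 7.00, 6.85, 6.81 and 6.88 in APT121 arrays and 6.67 to 7.34 (median 7.10) in wild type arrays, with the APT121 values inside the wild type range. Its difference was -0.20 ± 0.10 (95% interval -0.42 to 0.02, adjusted p = 0.113), and it passed after repeated quantile normalisation (-0.37, adjusted p = 0.00672), with only wild type arrays 5 to 8 (-0.28, adjusted p = 0.0121) and without wild type array 4 (-0.26, adjusted p = 0.0146). The vascular connexins Gja4 and Gja5 differed by -0.16 ± 0.11 and -0.27 ± 0.12 (adjusted p = 0.221 and 0.0765), and Gja5 passed without wild type array 8 (adjusted p = 0.00792). Gjc1, a connexin of early heart and vessel walls, differed by -0.17 ± 0.07 (adjusted p = 0.0530) and passed without wild type array 2 or APT121 array 2 or 3 (adjusted p = 0.0369 to 0.0465). Gjb5 (0.02), Gjb6 (-0.16), Gja10 (-0.13) and Gjc3 (-0.19) completed the class. Of the connexins in this paragraph, all but Gja4 and Gjb5 fell with a SAM-type statistic, where 40.6% of all genes fell. All but Gja4, Gjb1 and Gjb5 fell with arrays centred on their medians, where 39.2% of all genes fell. Against wild type arrays 1 to 4 alone Gja4 and Gja5 passed, Gja5 also with the replicate number as a block. Gjc1 passed with array weights and without the dimmer 25% of genes.

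The members that rose were brightly read genes. In the brightest 25% of genes by mean over all arrays, 8 of the 13 members rose (Cdh1, Dsg2, Ocln, Tjp1, Tjp3, Cldn3, Cldn4 and Cldn7), Gjb2 fell, and Cldn8, Pkp2, Pkp4 and Dsc2 did not pass. Of all genes in that range 36.7% rose and 33.4% fell, and the median difference was 0.39 for the members and 0.02 for all genes. In the next 25%, Pkp3 rose and 9 of 12 members fell, with a median of -0.39, against 36.5% of all genes rising, 31.1% falling and a median of 0.03. Below these, 0 of 23 members rose and 11 fell in the 25% above the dimmest, where 15.1% of all genes rose and 36.7% fell. In the dimmest 25%, 0 of 29 rose and 8 fell, where 2.79% of all genes rose and 18.9% fell. These are descriptions of the members, and no test was made of the differences between them and other genes.

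**Figure D3:**
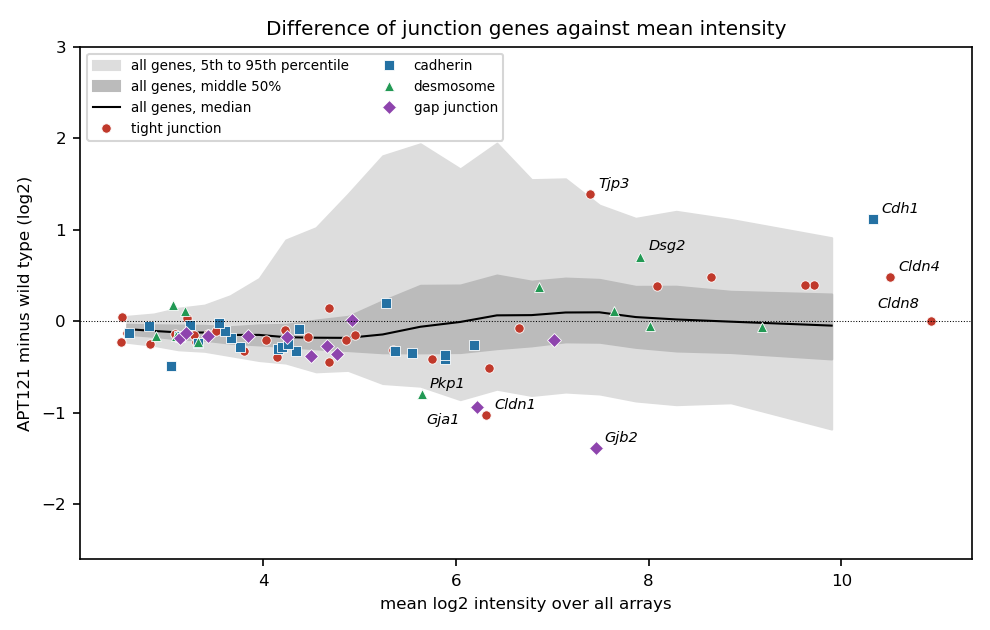
Difference (APT121 minus wild type, log2) of the 77 junction genes against their mean log2 intensity over all arrays, with the median, middle 50% and 5th to 95th percentile of all 19935 genes in bands. The members that rose lie at the bright end, where Cldn8 also lies at 0.01, and Gjb2, Cldn1, Gja1 and Pkp1 lie below the band's middle.

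Values did not overlap between the genotypes for 9 members upward and 12 downward, where 17.7% of all genes stood apart upward and 16.9% downward (34.6% in all). For each of them the exact two-sided permutation test over the 495 groupings of the arrays gave 0.00404, the smallest p it can give. Any gene whose groups do not overlap must give this p, so the test adds no support. Wild type arrays 1 to 4 and 5 to 8 did not overlap for 10 members (13.0%), against 10.5% of all genes. These were Tjp1, Ocln, Gjb2, Gja3, Dsc2, Pkp4, Cdh4, Cldn20, Cldn22 and Dsg1c. The main fit held no term for such a split among wild type arrays, and its cause was not tested. Calls held for 7 of the 9 members that rose in each of the 25 alternatives run in which they were tested (Tjp1 and Pkp3 are the exceptions), and for 8 of the 29 that fell (Cdh5, Cdh13, Pkp1, Gja1, Gja6, Gjb2, Cldn1 and Cldn23). Leaving aside the comparison with 1 APT121 array, the numbers were 8 and 14.

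Genes whose products bind these members were read from lists of partners, whose counts stand beside 22.8% of all genes rising and 30.0% falling. All 5 desmosome plaque and envelope-linked genes rose, with a median difference of 0.79. Periplakin (Ppl), a linker of desmosomes and keratin, rose by 1.55 ± 0.10 (adjusted p = 3.61e-09), plakoglobin (Jup), which binds desmosomal and classical cadherins, by 0.93 ± 0.07 (adjusted p = 8.00e-09) and envoplakin (Evpl) by 0.79 ± 0.08 (adjusted p = 7.20e-07). Desmoplakin (Dsp), the keratin anchor, and Perp, both named after their values were seen, rose by 0.46 and 0.36.

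Of 15 measured adherens junction partners, 9 rose and 4 fell (median 0.38). The largest differences were those of Ctnnal1, a relative of alpha-catenin, which fell by 1.13 ± 0.07 (adjusted p = 1.89e-09), Nectin3, an immunoglobulin-type adhesion molecule, which fell by 1.00 ± 0.07 (adjusted p = 5.06e-09), and Nectin4, which rose by 0.76 ± 0.08 (adjusted p = 8.95e-07). The catenins of the list, named after their values were seen, went both ways. Beta-catenin (Ctnnb1) rose by 0.72 ± 0.06, alpha-catenin (Ctnna1) by 0.62 ± 0.06 and p120-catenin (Ctnnd1) by 0.41 ± 0.07. Ctnnd2, a relative of p120-catenin known from neurons, fell by 0.76 ± 0.12 and Ctnna2, the neuronal alpha-catenin, by 0.22 ± 0.08 (adjusted p = 8.02e-05 and 0.0303), and Ctnna3 did not pass (-0.10, adjusted p = 0.250). Ctnnb1 measured 10.73 ± 0.03 in APT121 arrays and 10.01 ± 0.07 in wild type arrays (mean ± SD, n = 4 and 8).

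Of 22 measured tight junction scaffold and partner genes, 15 rose and 4 fell (median 0.46). Lsr, a protein of the corners where several cells meet, rose by 1.65 ± 0.09 (adjusted p = 3.13e-10), Cxadr, the coxsackievirus and adenovirus receptor, by 1.40 ± 0.09 (adjusted p = 2.43e-09) and Ybx3, a transcription factor that binds ZO-1, by 1.21 ± 0.08 (adjusted p = 3.42e-09). The 4 that fell were Jam2, Jam3, Mpp5 and Pard6a, by 0.35 to 0.45. Of 7 further connexins and pannexins, 1 rose and 2 fell (median -0.13). Panx1, a channel that releases ATP, rose by 0.42 ± 0.13 (adjusted p = 0.0112), and Gjd3 and Panx2 fell by 0.34 ± 0.08 and 0.29 ± 0.07 (adjusted p = 0.00132 and 0.00231).

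Regulators of epithelial or mesenchymal junction programmes were read too, namely transcription factors and the splicing regulators Esrp1 and Esrp2. Of these 16 genes, 4 rose (Esrp2 among them) and 9 fell (median -0.27), where 22.8% of all genes rose and 30.0% fell. Klf5, a factor of basal and proliferating epithelium, rose by 3.48 ± 0.17 (adjusted p = 7.21e-11) and Grhl2, a Grainyhead-like activator of Cdh1 and Cldn4, by 0.96 ± 0.09 (adjusted p = 1.16e-07). Elf5, known from secretory cells of the mammary gland, fell by 1.57 ± 0.32 (adjusted p = 6.90e-04) with a wide spread among APT121 arrays (6.12 ± 0.96, against 7.69 ± 0.45 in wild type arrays). The Snai, Zeb and Twist genes, which include known repressors of E-cadherin and are named after their values were seen, all 7 fell: Twist2 by 0.74, Snai2 by 0.62, Zeb1 by 0.58, Twist1 by 0.48, Snai1 and Zeb2 by 0.35 each and Snai3 by 0.30. These are also genes of stroma, whose fibroblast and smooth muscle markers were lower in the same arrays, and the part of stromal cell number in their values was not tested.

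**Figure D4:**
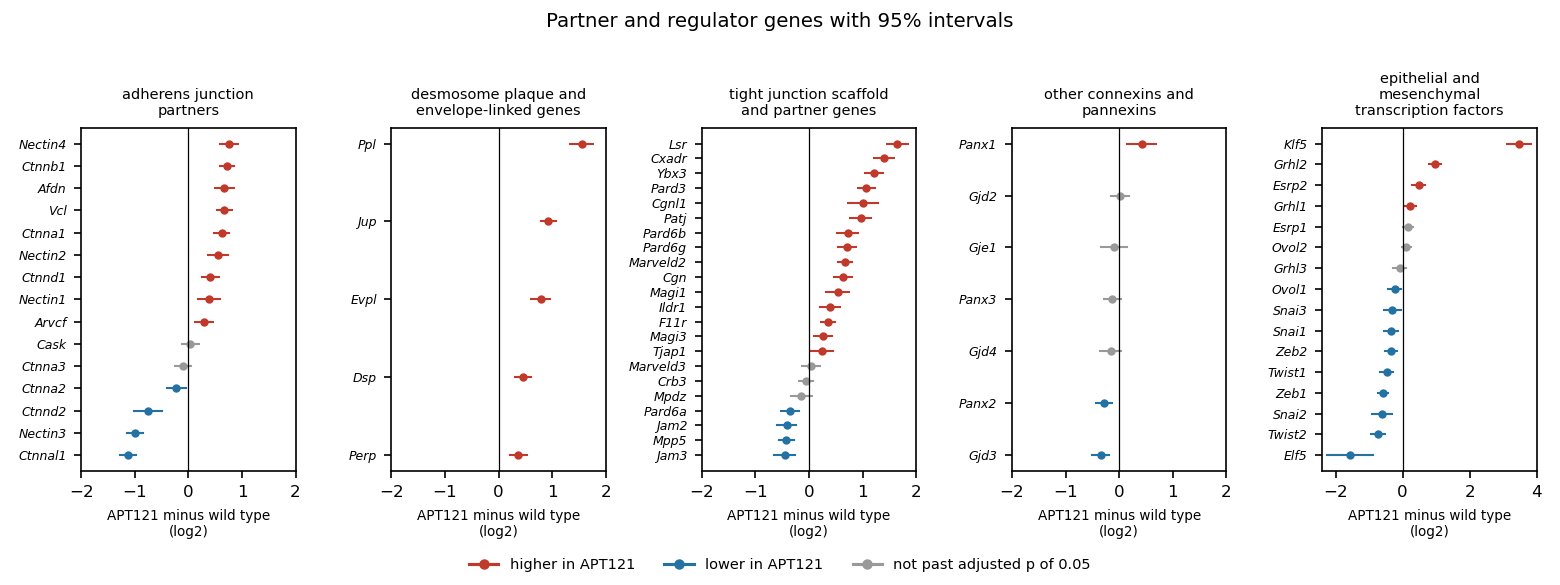
Differences (APT121 minus wild type, log2) with 95% intervals for the partner and regulator genes in 5 lists, with genes past an adjusted p of 0.05 coloured. All 5 desmosome plaque genes and 15 of 22 tight junction partners passed to the right of 0, and the 7 Snai, Zeb and Twist genes passed to its left.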

How the data were processed

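Anterior prostate RNA of 4 APT121 and 8 wild type pools was hybridised to Affymetrix GeneChip Mouse Gene 1.0 ST arrays. The deposited intensities are on a linear scale and, per the submitters' processing notes, were made by the authors with RMA (background correction, quantile normalisation and probe summarisation). The implementation is not given in the sources used here, and RMA hides a change of total RNA per cell.

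Of 28815 transcript clusters, the 21780 with 1 gene symbol were kept, and the cluster with the highest mean represented each of 19935 genes. Cdh18, Cdh24 and Cldn10 had a second cluster. Clusters with several symbols, 8 of them touching the rule, were not used. Log2 values were fitted by genotype in R 4.3.3 with lmFit and eBayes of limma 3.58.1 (two-sided, no other term) and adjusted over all genes at a threshold of 0.05. The fit was tested on simulated data. Since SAM is the test named by the study's design, a SAM-type statistic was among 25 alternatives.

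Members and lists were chosen with earlier results of these data known. Genes named in full are up to 5 rises and 5 falls for each junction type and a set of genes always named (35 in all), with up to 3 genes for each partner list. For 9 sets of cell type markers the summed linear intensity was taken. The build of the values is not named, so only promoter coordinates are printed.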

Additional observations from a re-analysis of the deposited data

Results flagged for a closer look

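In 70 groups of values of the named genes, 3 held a value farther from the nearest other than Dixon's 95% limit allows, and chance flags about 1 in 20 groups. Cldn4 measured 10.62 in APT121 array 3, and 10.88 to 10.91 in the other APT121 arrays (gap over range 0.908). Dsc2 measured 8.33 in wild type array 8, where the other wild type arrays gave 7.89 to 8.07 (gap over range 0.582). Gja3 measured 5.27 in wild type array 6, the wild type array with seminal vesicle transcripts, where the others gave 4.68 to 4.96 (gap over range 0.535).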

How the results depend on the processing

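Counts of rises and falls were recomputed under 25 alternatives. The named genes were also set against the unadjusted exact permutation test, and a gene removed by a filter gave no result there. Over these, 815 results kept their direction and their side of the threshold, 56 lost the call, 19 gained it and 4 turned. The genes that turned were not called as reported or in the setting that turned them, and Pkp2 was called in another, with only wild type arrays 5 to 8 (0.23, adjusted p = 0.0253). Dsc2 was 0.038 against wild type arrays 1 to 4 alone and in the fit with the replicate number as a block, Pkp2 was -0.040 after repeated quantile normalisation, and Pkp4 was 0.036 against wild type arrays 5 to 8. The junction genes that fell, 29 as reported, numbered 19 after repeated quantile normalisation and 10 without the dimmer 50% of genes (25 members tested). They numbered 40 with arrays centred on their medians (51.9%, against 39.2% of all genes). With the SAM-type statistic they numbered 41 (53.2%, against 40.6% of all genes). Leaving out single arrays gave 9 to 11 rises and 20 to 30 falls over all junction genes, 5 to 10 falls of tight junction genes, 1 to 2 rises and 8 to 13 falls of cadherins, 2 to 3 rises and 2 to 3 falls of desmosome genes and 4 to 5 falls of connexins, the lowest for tight junction genes and cadherins being without APT121 array 2. Falls of tight junction genes were 3 without the dimmer 50% and 2 with APT121 array 1 alone. Rises of cadherins were 2 when wild type array 6 or 7, arrays 5 to 7 together or APT121 array 3 were left out, with only wild type arrays 1 to 4, and with the SAM-type statistic. Falls of cadherins were 6 after quantile normalisation, 4 without the dimmer 50%, 8 against wild type arrays 1 to 4 and 2 with APT121 array 1 alone. Desmosome genes gave 1 rise with APT121 array 1 alone, and 1 fall there, after quantile normalisation, without the dimmer 25% or 50% and against wild type arrays 5 to 8. Falls of connexins were 9 with arrays centred on their medians, 2 without the dimmer 50% and 10 with the SAM-type statistic. With the replicate number as a block over arrays 1 to 4, cadherins gave 2 rises and 7 falls. Arrays of the same number correlated at -0.013 to 0.116 in their deviations, and arrays of different numbers at -0.095 to 0.092. With 4 arrays for each genotype, these values cannot tell whether arrays of the same number share a litter, day or batch. The cause of these shifts was not tested, apart from filters and left-out arrays, which test fewer genes or use fewer samples. Without detection calls, values near the low end of the scale were not shown to be above background.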
